A study of Saccharomyces cerevisiae with 5 samples.

Results

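Transcript levels of wild-type yeast growing on glycerol were described from 3 of the 5 arrays of the study. The other 2 arrays hold Δrsf2, an isogenic strain without RSF2 (YJR127C, also called ZMS1), and enter only where they are named. The 3 wild-type arrays hold BY4741, a haploid MATa laboratory strain of Saccharomyces cerevisiae that carries deletions in HIS3, LEU2, MET17 and URA3, which the isogenic mutant shares. Both strains were collected at an A600 of 0.6 from YPG, a rich medium in which glycerol is the only carbon source, in 50 ml according to the general growth text of the labels. Poly(A) RNA of each biological replicate went to 1 Affymetrix yeast array. Nothing more is said of how the replicates were kept apart, so the spread given here is between these samples and may be partly technical. As a check of the labels, the deposited signal of RSF2 was 1.9 and 3.3 in Δrsf2, against 204, 254 and 416 in the wild type.

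Of 9275 probe sets that are not controls, 6504 were assigned to exactly 1 gene by the platform annotation. They stand for 5656 genes, each read from its probe set of highest mean. A level here is the deposited hybridisation signal in arbitrary units, given in the order of replicates 1, 2 and 3. The rank of a gene counts down from the highest mean log2 signal over the 3 arrays, with values under 27.1 set to 27.1, the 10th percentile of all values. The percentile of a gene is its place within 1 array, where 100 is the top, and it does not depend on how the array was scaled. Signals are not scaled to transcript length or to probe affinity, so a rank orders signals and not numbers of molecules. A culture is read as a whole, so fewer cells with a transcript and less of it per cell cannot be told apart. How far probe sets can lie apart was read from genes with 2 or more, such as TRA1 with 13. In 241 such genes the highest and lowest probe set differed by a median of 5.89-fold, and 153 of them (63.5%) differed by at least 4-fold. Of the genes named below, ALD6, ATG19, HIS3, MFA1, OLI1, POX1, RDN25-1, RDN37-1, RPL7A, RPL7B, RPS0B and YDR034C-A have a probe set at least 4-fold below the one used.

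Glycerol is a respiratory carbon source for yeast. It is imported, phosphorylated and oxidised to dihydroxyacetone phosphate, from which carbon flows down to pyruvate and the tricarboxylic acid (TCA) cycle for energy and up through gluconeogenesis to hexose phosphates. The electrons enter the respiratory chain, which in this yeast begins with single-protein NADH dehydrogenases in place of a proton-pumping complex I. Many enzymes of these routes exist as pairs of related genes that arose by duplication, and the members of a pair often answer to different conditions, such as the presence of oxygen or glucose.

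Wild-type replicate 1 stood apart from the other 2 in the shape of its signals. The trimmed means were alike (501, 500.4 and 500.3), but the median signal was 121 in replicate 1, against 168 and 207 in replicates 2 and 3, and the 99th percentile was 16322 against 7431 and 5697. The 10 brightest genes held 10.1% of the summed signal in replicate 1, 3.13% in replicate 2 and 2.37% in replicate 3. Its CreX spike-in control read 52790 against 9333 and 2633, and for ACT1 the 3′ over the 5′ control signal was 2.76 against 2.28 and 1.69. Their part in the results was not tested, and results that rest on signal size are given with and without this array. The order of genes was closer: Spearman's rho over the 5656 genes, which are not independent of each other, was 0.917 and 0.921 between replicate 1 and replicates 2 and 3, and 0.955 between replicates 2 and 3.

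**Figure D1:**
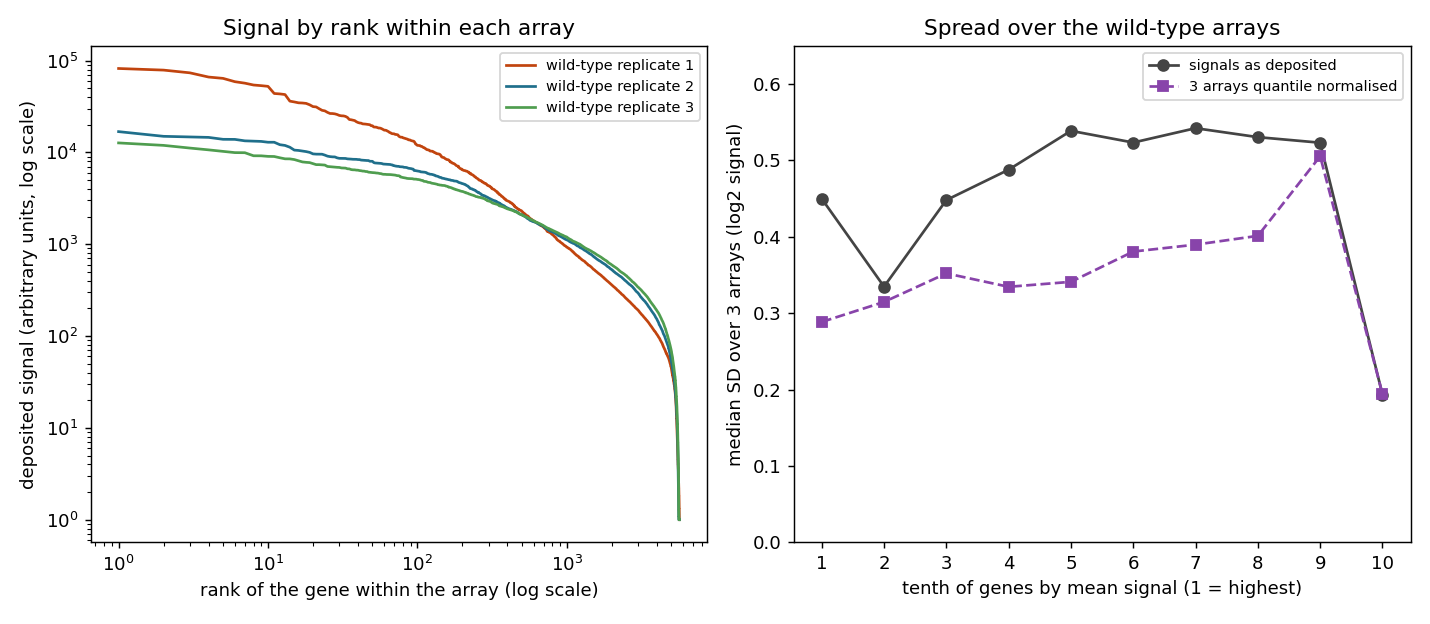
Left, deposited signal (arbitrary units) against the rank of the gene within its array, both on log axes, 1 line for each of the 3 wild-type arrays; replicate 1 runs above the others over its brightest genes and below them over most of the rest. Right, median SD over the 3 arrays of log2 signal in each 10% of genes by mean signal, as deposited and after quantile normalisation; in the brightest 10% it was 0.45 as deposited and 0.29 after normalisation.

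The brightest transcripts of glycerol-grown cells came from stress, cell wall, ribosome and glycolysis genes and from the enzyme that oxidises ethanol. SSA1 (YAL005C), which encodes a cytosolic HSP70 chaperone, ranked first with 78812, 14977 and 12694. CCW12 (YLR110C), which encodes a major cell wall mannoprotein, ranked 2 with 82057, 14726 and 10665. Both were among the first 4 genes of every array, although replicate 1 was over 5 times as bright as the others at this end.

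ADH2 (YMR303C), the glucose-repressed alcohol dehydrogenase that converts ethanol to acetaldehyde, ranked 6 with 58938, 13896 and 9952, and its rank within an array was 5 or 6 throughout. TDH3, the main glyceraldehyde 3-phosphate dehydrogenase, ranked 7 with 56796, 12911 and 9185. The stress gene DDR2 ranked 9. HSP12, which encodes a small heat shock protein that stabilises membranes, ranked 11 with 54228, 12139.7 and 7879. HOR7, named for its response to osmotic stress, ranked 5 with 64059, 14581 and 9927, and the reading frame YDR524C-B ranked 3 with 73594, 16847 and 10268. Each of these signals was brightest in replicate 1 and dimmest in replicate 3.

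The first 25 genes also held 7 for proteins of the cytosolic ribosome (RPS21B, RPS21A, RPL21B, RPS22A, RPS26A, RPL24B and RPS3), 5 glycolytic genes (TDH3, ENO1, TPI1, FBA1 and PGK1) and the cell wall genes CCW12, TIP1 and CWP2. FIT3, a cell wall protein that helps to retain siderophore-bound iron, ranked 12 with 42691, 13868 and 8099.7. GCV3, the lipoyl-carrying H protein of the glycine cleavage complex, ranked 20 with 22688, 10350.2 and 9029.6. CPR1, the cytosolic cyclophilin, ranked 22 and HYP2, the translation factor eIF5A, 25. Of the 25, 22 were also among the first 25 when replicate 1 was left out, and 17 were among the first 25 of each array by itself. In 8 of the 25 the probe set name is not plain but carries an added letter. It is r for SSA1, g for YDR524C-B and CPR1, and i for RPS21B, RPS21A, TDH3, RPS26A and ENO1. A part of their signal may come from related genes, which was not tested.

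The first 100 genes were 32 of the cytosolic ribosome, 8 of the cell wall, 6 of glycolysis, 4 of the stress list and 3 each of oxidant removal and of hexose kinases and fermentation, with 33 in none of the 36 lists examined. Of these 100, 72 were among the first 100 of every array, and 134 genes were among the first 100 of at least 1 array. The highest 10% of all genes holds 565, and 432 genes were in it in all 3 arrays.

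**Figure D2:**
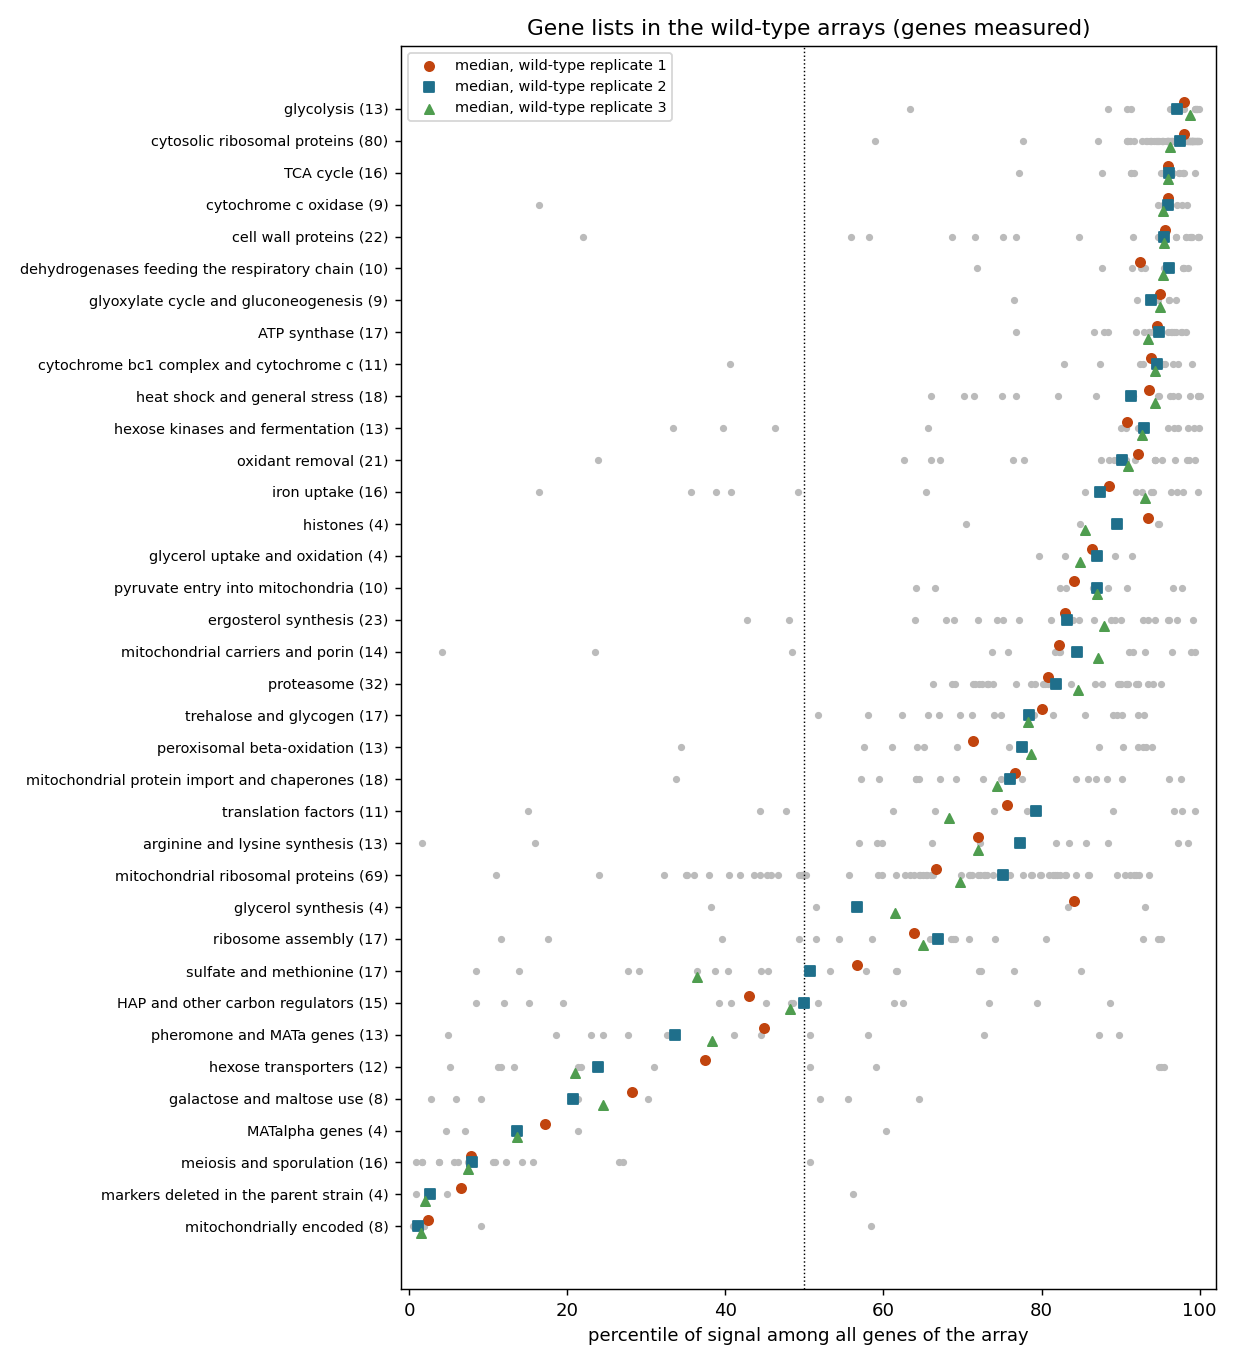
Percentile of signal within the array for the 36 gene lists, with the number of measured genes in brackets; grey points are genes (mean of 3 arrays) and the coloured symbols are the list's median in each wild-type array. Medians of 27 lists lay over the 50th percentile, from 98.0 for glycolysis at the top, and mitochondrially encoded genes lay lowest at 1.67.

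The 4 genes listed for glycerol transport and oxidation lay between the 79.6th and the 91.5th percentile, below most enzymes further down the route. Their median percentile was 86.1 ± 1.1 (SD over the 3 arrays). GUT2, the mitochondrial glycerol 3-phosphate dehydrogenase that passes electrons to ubiquinone, had 1723, 3284 and 1986 and ranked 460. STL1, the glycerol-proton symporter of the plasma membrane, had 1542, 2351 and 1609 and ranked 578. For both genes replicate 2 was the highest array.

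GUT1, glycerol kinase, had 1163, 1076 and 1165 and ranked 928. FPS1, the channel through which glycerol leaves the cell, had 965, 1022 and 879.5 and ranked 1094. These 2 signals were nearly level over the arrays, and no gene of the 4 spanned a 2-fold range. The reverse route was measured too. GPD1, the cytosolic glycerol 3-phosphate dehydrogenase that makes glycerol for osmotic balance, had 3349, 2459 and 2410.3 at rank 374, while its relative GPD2 had 649.6, 227 and 254 at rank 2612. Of the phosphatase genes, GPP1 had 2336, 743 and 1370.4 and GPP2 had 238, 181 and 176. The glycerol synthesis list was the one whose arrays differed most: its median percentile was 84, 56.7 and 61.5, highest in replicate 1.

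The TCA cycle was nearly level at a high place, with a median percentile of 96 ± 0.11, and 14 of its 16 measured genes were in the highest 10%. MDH1, mitochondrial malate dehydrogenase, led with 20825, 9581 and 6778 at rank 33. CIT1, mitochondrial citrate synthase, had 10623, 6354 and 3431, and FUM1, fumarase, 11045, 5706 and 3608. Citrate synthase CIT3 was the lowest, with 581, 956 and 957 at rank 1269. The E1 and E2 subunits of 2-oxoglutarate dehydrogenase, KGD1 and KGD2, ranked 399 and 432, below their shared E3 subunit LPD1 at 184. Among the subunits of succinate dehydrogenase the catalytic SDH1 was the dimmest, at 1943, 1323 and 1570.3, against 8040.1, 5795 and 5661 for the iron-sulphur subunit SDH2; as with all ranks, the probe sets differ.

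Besides succinate dehydrogenase, the enzymes NDE1, NDI1, GUT2, DLD1 and CYB2 pass electrons to the respiratory chain. NDE1, which oxidises cytosolic NADH at the outer face of the inner membrane, had 9710.3, 6955 and 6029 at rank 90, and the internal NADH dehydrogenase NDI1 had 2963, 2986 and 1971 at rank 389. The lactate dehydrogenases CYB2 (L-lactate cytochrome c oxidoreductase) and DLD1 (for D-lactate) ranked 262 and 384, although lactate was not the carbon source. CYB2 was lowest in replicate 1, at 2567, 5085 and 4178. NDE2 ranked 1435 and varied more, with 810, 346 and 1262.

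In the cytochrome bc1 complex the small subunit QCR7 led with 15011, 9641 and 5395 at rank 54, and QCR6 and QCR9 ranked 152 and 180. RIP1, the Rieske iron-sulphur protein, had 4580.4, 3382 and 3509. The core protein COR1 and cytochrome c1, CYT1, lay lower at ranks 637 and 862, with 1653, 1173 and 911 for CYT1. The main cytochrome c, CYC1, had 2918, 2363 and 2479.7 at rank 392.

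Of the 9 nuclear genes of cytochrome c oxidase 8 lay within the highest 10%, between ranks 86 (COX12) and 299 (COX9). COX12 had 11678, 6881 and 5399 and COX9 3750.3, 3407 and 3150.3. The median percentile of the list was 95.8 ± 0.34. The exception was COX5B at rank 4769, described with its partner below. ATP synthase genes were spread more widely, from STF2, a factor that stabilises the inhibited enzyme, at rank 94 to ATP20 at 1248. The catalytic beta subunit ATP2 had 2408, 2359.6 and 2213 at rank 434, and the gamma subunit ATP3 7606, 4488 and 3931 at rank 175.

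Taken as a union without double counting, the TCA cycle, dehydrogenases, bc1 complex, cytochrome c oxidase and ATP synthase lists held 59 genes. Of these 48 (81.4%) were in the highest 10% of all genes and 1, COX5B, fell below the signal of 123 used as a filter, which marks the 25th percentile. Only 5 were in the first 100. Their median percentile was 94.9, 95.7 and 95.4 in replicates 1, 2 and 3, so the arrays placed the respiratory genes alike. The share of genes in the highest 10% is a description of signals, and the lists were chosen with earlier results of these data known.

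Genes for the mitochondrial membrane carriers were headed by MIR1, the phosphate carrier, with 26552, 8015 and 6913 at rank 30, and by POR1, the porin of the outer membrane, with 15617, 8726 and 5176 at rank 62. PET9, the main ADP/ATP carrier, had 6589, 4659 and 3708 at rank 187. The dicarboxylate carrier DIC1 and the oxodicarboxylate carrier ODC1 ranked 386 and 422. For pyruvate, the mitochondrial pyruvate carrier subunit MPC3 had 9996, 5792 and 4576 at rank 116. The pyruvate dehydrogenase subunits LAT1, PDA1, PDB1 and PDX1 ranked 410, 605, 982 and 1993, so that PDX1, the E3-binding protein, was the dimmest, at 401, 490.1 and 554.

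Of the 9 genes of the glyoxylate cycle and gluconeogenesis 8 were in the highest 10%, and the list's median percentile was 94.6 ± 0.64. PCK1, phosphoenolpyruvate carboxykinase, had 5929, 5108 and 4491 at rank 172. FBP1, fructose-1,6-bisphosphatase, had 6255, 4205 and 3560.2 at rank 209. Both are key enzymes of gluconeogenesis and both lay within a 2-fold range over the arrays.

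Of the glyoxylate enzymes, isocitrate lyase, ICL1, had 4595, 2848 and 2387 at rank 321 and malate synthase, MLS1, had 4213, 2229 and 3076 at rank 332. ACS1, acetyl-CoA synthetase, had 4965, 2493 and 3352, and SFC1, the succinate-fumarate carrier, 1760, 2886 and 2491. CIT2, the peroxisomal citrate synthase, was the exception at rank 1249, with 489, 601 and 1899.6; replicate 3 was the high array. Peroxisomal beta-oxidation lay lower as a list, at a median percentile of 75.9 ± 3.9, yet POT1 (3-ketoacyl-CoA thiolase), FOX2, SPS19, PEX11 and CTA1 (peroxisomal catalase) were in the highest 10%. POT1 had 3772, 2084 and 3800.4 and the acyl-CoA oxidase POX1 242, 657 and 671, at ranks 327 and 2004.

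Glycolytic genes stood at the top of all lists with a median percentile of 98 ± 0.84. The 6 brightest of its genes belong to reversible steps, which gluconeogenesis shares. Besides TDH3, ENO1 had 29908, 8355 and 9196, TPI1 31549, 10208 and 6882, FBA1 28739, 8614 and 7322, PGK1 31304, 8416 and 6636 and GPM1 25050.3, 8408 and 7032. Other genes of reversible steps lay lower, with PGI1 at rank 158, ENO2 at 213 and TDH1 at 470. TDH2 had no single-gene probe set, so 13 of the 14 listed genes were measured. Among the steps that run only downwards, CDC19, pyruvate kinase, had 10696, 5041 and 5721 at rank 109. Of the phosphofructokinase subunits, PFK1 had 1482, 2095 and 1479 at rank 626 and PFK2 had 2074, 2096 and 1961 at rank 507.

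Genes of fermentation were split. ADH1, the fermentative alcohol dehydrogenase, had 14067, 5517 and 6415 at rank 82, and PDC1, the main pyruvate decarboxylase, 10691, 3804 and 3845 at rank 163. PDC5 had 186, 157 and 152. The mitochondrial aldehyde dehydrogenase ALD4 had 20472, 8229.6 and 6467 at rank 39, above the cytosolic ALD6 with 1596, 2396 and 1795 at rank 548. Among kinases of hexoses the order was GLK1 (rank 133), HXK1 (228) and HXK2 (522), with 10343, 4892 and 4137 for GLK1, 4511, 4951 and 3616 for HXK1 and 1803, 1885 and 2330.1 for HXK2.

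Hexose transporters as a list lay low, at a median percentile of 27.4 ± 8.8, and 3 of 12 were in the highest 10%. These were HXT5 with 6379, 2089 and 4572, HXT6 with 3201, 4889 and 3626 and HXT7 with 3179, 4491 and 3121. HXT6 and HXT7 are nearly identical in sequence, so their signals may not be separate. The low-affinity transporter HXT1 had 2.5, 39.6 and 32.5, HXT3 120.3, 289 and 771 and HXT4 56.8, 54.5 and 45.7; HXT3 was highest in replicate 3. GAL1, GAL7 and GAL10, the galactose pathway, were near the floor, with 30, 22.3 and 21.8 for GAL1.

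The regulators of this metabolism were dim by comparison, with a median percentile of 47 ± 3.6 and none in the first 100. HAP4, the limiting activator subunit of the HAP complex for respiratory genes, was the brightest with 1787, 1896 and 1462 at rank 603. Its DNA-binding partners HAP2, HAP3 and HAP5 ranked 2893, 1142 and 2717. CAT8, an activator of gluconeogenesis, had 172, 325 and 286, and ADR1, an activator of ethanol and fatty acid use, had 128, 222 and 353. RSF2 ranked 2905, close to the middle of all genes, and RSF1, a small protein required for respiratory growth, 5010 with 35.7, 63.5 and 78.1. MIG1, the glucose repressor, had 59.6, 91.7 and 149 at rank 4584.

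Proteins of the cytosolic ribosome had a median percentile of 97.2 ± 0.92, and 77 of the 80 measured genes were in the highest 10%; the other 57 of 137 genes had no single-gene probe set. The exceptions were RPL9B, RPL22B and RPL9A, at ranks 682, 1236 and 2322. The 69 mitochondrial ribosomal protein genes lay well below, at 70.5 ± 4.3, with 6 in the highest 10%. Their signals ran from MRPL33, with 3086, 3694 and 2299.8 at rank 343, to RSM23, with 50.8, 44.6 and 56.8 at rank 5093. Genes of ribosome assembly had a median of 65.3 ± 1.5, with GAR1 highest at 3718, 5932 and 2519.8 and UTP4 lowest at 40.3, 75.4 and 48.8.

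Of the translation factors 11 of 17 were measured; the pairs TEF1 and TEF2, EFT1 and EFT2, and TIF1 and TIF2 had no single-gene probe sets. HYP2 led with 33022, 8157 and 6462. EFB1, the exchange factor of eEF1A, had 8480.2, 6131 and 4718 and YEF3, elongation factor 3, 5713, 4876 and 4376, while SUI2, the alpha subunit of eIF2, had 223, 258 and 254 at rank 3138. Among proteasome genes the range was narrow, from PUP3 at rank 281 to RPN1 at 1851, and all 32 passed the filter, with a median percentile of 82.4 ± 1.9. Mitochondrial import and chaperone genes ran from HSP60, the matrix chaperonin, with 7084, 5633 and 5574 at rank 130, to MAS2, a subunit of the presequence protease, with 113, 228 and 192 at rank 3754.

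Stress and oxidant defence genes were high but uneven. The stress list had a median percentile of 93.1 ± 1.6, from SSA1 at the top to CTT1, cytosolic catalase, with 717, 299 and 769 at rank 1774. HSP26 had 13688, 3927 and 4411 and GRE1 25286, 2084 and 4954, and for both replicate 1 was over 3 times as bright as either other array. SSA3, an HSP70 gene, had 1069.7, 305 and 2389, and its percentile was 75.1 ± 24. Of 18 stress genes 14 spanned at least a 2-fold range over the arrays as deposited and 8 after quantile normalisation of the 3 arrays. The shares over all 4242 genes that passed the filter were 44.2% and 24.8%. A wide range as deposited was not particular to stress genes: 64 of 80 cytosolic ribosomal protein genes had it, and 12 after normalisation.

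For oxidants, the peroxiredoxin TSA1 had 25882, 8457 and 6194 at rank 32, the copper-zinc superoxide dismutase SOD1 16105, 6146 and 5772 and the mitochondrial SOD2 11906, 2305 and 2422. SOD2 was brightest in replicate 1 by more than 4 times. GPX2, a glutathione peroxidase, was lowest of the list at rank 4339. In the iron list, the oxidase FET3 had 8329.8, 4809 and 4371 and the permease FTR1, its partner in uptake, 2649.6, 2729 and 2351. FIT2 ranked 108 beside FIT3, whereas FIT1 had 173, 214 and 156 at rank 3680, so these 3 related cell wall genes lay far apart. The ferric reductase FRE2 was the dimmest at 27.2, 62.9 and 188.

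In the cell wall list 14 of 22 genes were in the highest 10%. After CCW12, TIP1 and CWP2 came HPF1, CCW14 and SED1, a mannoprotein typical of non-growing cells, at ranks 51, 58 and 59. The TIR genes, which are known from cold and low oxygen, were lower, with 898, 273 and 280 for TIR1 and 91.5, 92.3 and 134 for TIR4. Ergosterol genes ran from ERG3, the C-5 desaturase, with 15917, 8226 and 7359.6 at rank 45, to ERG12, mevalonate kinase, with 228, 135 and 364 at rank 3277.

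Among storage genes TPS2, trehalose phosphate phosphatase, led with 2363, 3063 and 2407 at rank 390, and GLG2, a glycogenin, was lowest with 271, 304 and 372 at rank 2706. LYS20, homocitrate synthase, stood out in the arginine and lysine list with 20245, 6546 and 4768 at rank 70, and ARG3, ornithine carbamoyltransferase, was at or under 12.3 in all arrays. The sulfate and methionine list was the one that crossed the middle, with a median percentile of 56.6, 50.7 and 36.4, lowest in replicate 3. It ran from CYS4, cystathionine beta-synthase, with 1076, 1148 and 1615, to the sulfate permease SUL1 with 47.8, 39.7 and 20.4.

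At the low end, 203 genes lay at the floor of 27.1 in all 3 arrays. The genes of mitochondrial DNA had a median percentile of 1.67 ± 0.67 after poly(A) selection. OLI1 (subunit 9 of ATP synthase) was the only one of 8 over the filter, with 119, 722 and 700, which rests on 1 of its 2 probe sets: the other had 19, 4.3 and 0.1. COX2, COX3, COB, ATP6, ATP8 and VAR1 were at the floor. Meiosis and sporulation genes had a median of 7.72 ± 0.26. The kinase gene IME2 had 57.7, 36.2 and 47.1, SPO11 1.8, 2 and 1.2 and SMK1 5.5, 2.3 and 1.2, while IME1, which starts meiosis, had 175, 307 and 497 at rank 2763.

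Strain markers were read as values. The pheromone and MATa list had a median percentile of 38.9 ± 5.7 and the 4 genes of the other mating type 14.8 ± 2.1. Of the 13 genes in the pheromone and MATa list 2 were in the highest 10%. In the same list 4 lay below the filter, as do 25% of all genes. The list ran from MFA1 at rank 448 to FUS1 at 5411. Of the a-factor genes, MFA1 had 5148, 1702 and 1351 and MFA2 had 4256, 1596 and 1027, and the alpha-factor receptor of a cells, STE2, had 143, 181 and 166. The alpha-factor gene MF(ALPHA)1 had 45.1, 6.8 and 39.7 and the a-factor receptor STE3 80.4, 103 and 126. SAG1, the agglutinin of alpha cells, was higher, with 312, 377 and 606 at rank 2243. URA3 had 3.4, 0.9 and 0.4, MET17 18.9, 4.8 and 2 and LEU2 30.5, 11.9 and 11.7, all near or under the floor. HIS3 was not by its brighter probe set, with 476, 310.1 and 361, while its other probe set had 4.7, 36.4 and 54.7. The his3 allele of BY4741 removes only part of the gene, and the place of the probes was not known here.

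Related genes were set side by side for 181 pairs, of which 141 could be measured: both members had a single-gene probe set and at least 1 was over the filter. In 120 of the 141 the same member was brighter in all 3 arrays, in 86 the signals of the members did not overlap between any arrays, and in 35 the difference was over 4-fold in each array. Without ribosomal proteins these counts were 94, 76 and 34 of 110 pairs, with a median fold of 3.40. These are descriptions of signals from different probes. This median is below the median of 5.89-fold between the highest and lowest probe sets of the same gene, and the part of probe affinity was not tested. In each sentence below a log2 ratio is the first gene over the second, as the mean ± SD of the arrays (n = 3).

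The pairs of respiration and the TCA cycle lay furthest apart, with 21 of 21 in the same order in every array, 18 without overlap and a median fold of 8.07. COX5A, the subunit of cytochrome c oxidase made with oxygen, had 4207, 3947 and 3462, against 63.5, 82.4 and 88.1 for the hypoxic COX5B. The log2 ratio was 5.64 ± 0.38, a 50-fold difference. CYC1 exceeded CYC7, the hypoxic cytochrome c, by 3.58 ± 1.11, and CYC7 had 109.6, 413 and 222. PET9 exceeded AAC3, the anaerobic ADP/ATP carrier, by 7.35 ± 0.50, which is a lower bound in the arrays where AAC3 (7.3, 35.6 and 4.9) was under the floor. In all 3 pairs the member known from aerobic cells was the brighter.

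The same held for the translation factor eIF5A, where HYP2 exceeded the anaerobic ANB1 by 7.61 ± 0.86, with 88.1, 47.4 and 55.8 for ANB1. POR1 exceeded POR2 by 6.30 ± 1.59, ODC1 exceeded ODC2 by 3.08 ± 0.60 and NDE1 exceeded NDE2 by 3.39 ± 1.05. Succinate dehydrogenase subunits exceeded their homologues. SDH4 exceeded SHH4 by 2.77 ± 1.28. SDH1 exceeded SDH9 by 4.32 ± 1.13 and SDH3 exceeded SHH3 by 4.42 ± 3.08, and in both cases the replicate 2 ratio is a lower bound, since SDH9 (132, 21.7 and 141) and SHH3 (946, 14.3 and 1141) were under the floor there. The order in this group was thus stable, and the size was not.

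In some pairs the first-named member was the dimmer. The pyruvate carrier subunit MPC2, known from fermenting cells, had 1342, 1376 and 1521, against 9996, 5792 and 4576 for the respiratory form MPC3, a log2 ratio of -2.19 ± 0.66. Mitochondrial IDP1 had a ratio of -3.01 ± 0.37 to cytosolic IDP2, both NADP-dependent isocitrate dehydrogenases. INH1, the inhibitor of the ATP synthase, had a ratio of -1.77 ± 0.08 to its relative STF1, the narrowest SD of the respiratory pairs as deposited. Glycogen synthase GSY1 stood at -2.19 ± 0.22 to GSY2.

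**Figure D3:**
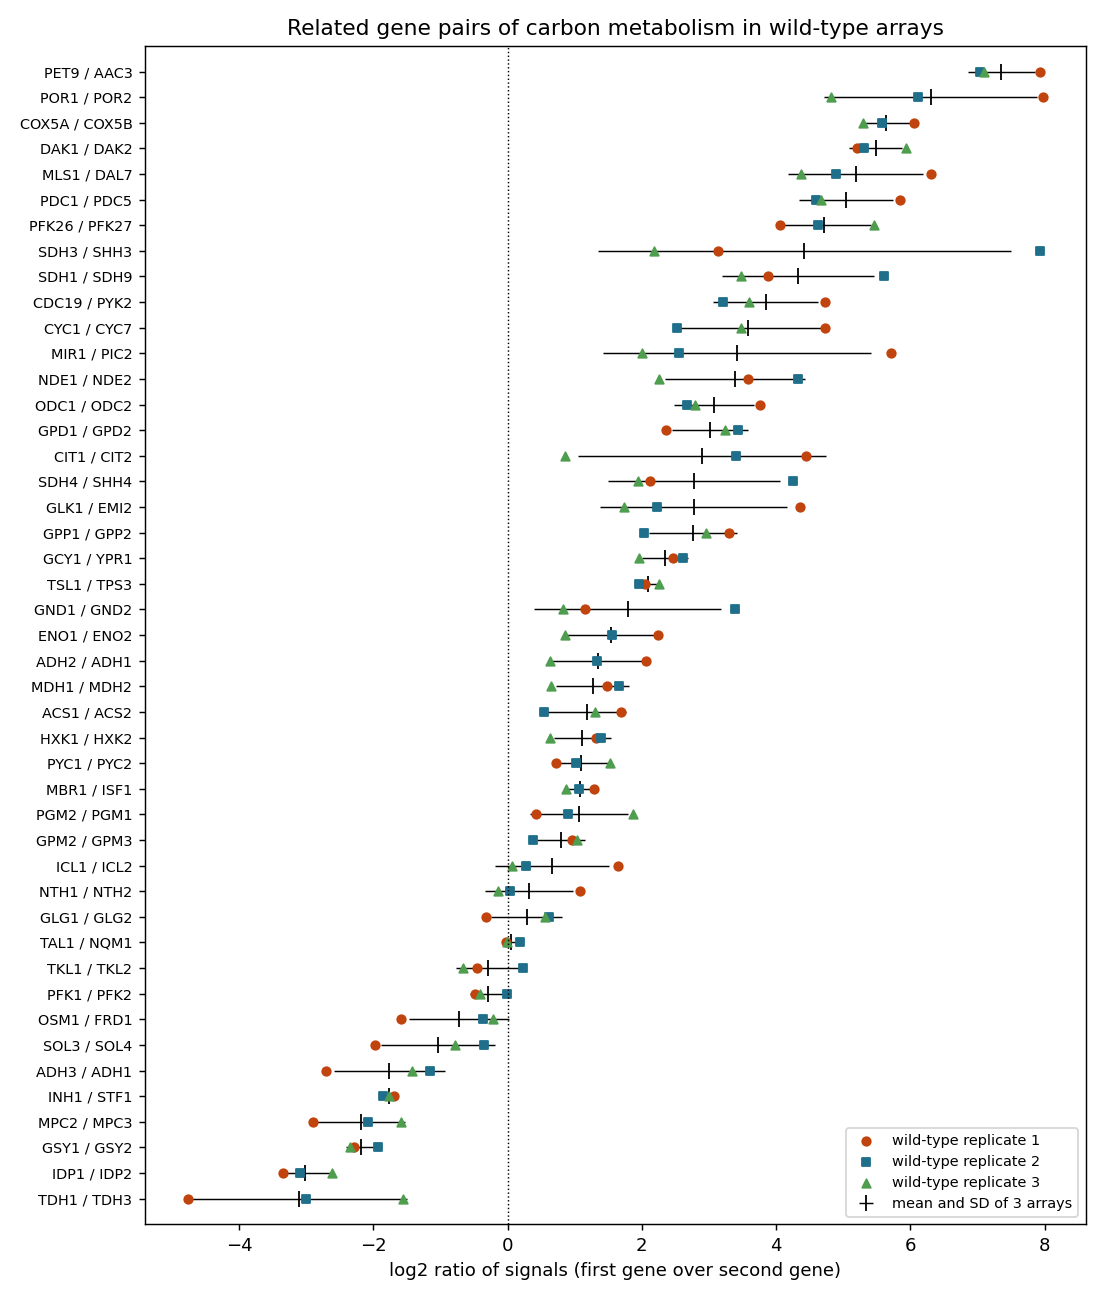
Log2 ratio of signals, first gene over second gene, for 45 related pairs of respiration, glycerol, storage and sugar metabolism; each symbol is 1 of the 3 wild-type arrays, and the bar and line are their mean and SD. PET9 over AAC3 (7.35), POR1 over POR2 (6.30) and COX5A over COX5B (5.64) lie at the top, and TDH1 over TDH3 (-3.11) at the bottom.

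On the glycerol side, GPD1 exceeded GPD2 by 3.02 ± 0.57 and GPP1 exceeded GPP2 by 2.76 ± 0.65. DAK1, dihydroxyacetone kinase, had 1001, 1073 and 1664, while DAK2 was under the floor in each array. The ratio of their geometric means, 44.8-fold with DAK2 at the floor, is thus a lower bound for the mean and not for each array. Acetyl-CoA synthetase ACS1 exceeded ACS2, the form used on glucose, by 1.18 ± 0.59. ADH2 exceeded ADH1 by 1.34 ± 0.72, yet the signals of the pair overlapped across arrays. ADH3, the mitochondrial form, stood at -1.76 ± 0.82 to ADH1. Hexokinase HXK1 exceeded HXK2 by 1.12 ± 0.42, and PDC1 exceeded PDC5 by 5.04 ± 0.70. In these pairs the order was the same in all 3 arrays.

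Pyruvate kinase CDC19 exceeded PYK2 by 3.85 ± 0.79, and ENO1 exceeded ENO2 by 1.55 ± 0.69. The probe sets of ENO1 and ENO2 both carry the added letter i, so a part of their signal may be shared, which was not tested. TDH1 stood at -3.11 ± 1.61 to TDH3, with 2098, 1605 and 3132 for TDH1. Other pairs lay close. Transaldolase TAL1 had 2209.5, 1603 and 1707, and its relative NQM1 2245, 1414 and 1722, with a ratio of 0.05 ± 0.11. The phosphofructokinase subunits stood at -0.30 ± 0.26, with PFK2 the brighter in each array and signals that overlapped. Isocitrate lyase ICL1 over its mitochondrial relative ICL2 was 0.66 ± 0.85, with ICL1 the brighter in each array and no overlap of signals, although replicate 3 had them nearly level.

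Outside carbon metabolism, SSA1 exceeded SSA2 by 2.76 ± 0.85 and HSC82, the constitutive HSP90, exceeded the heat-induced HSP82 by 2.15 ± 1.38. HSP82 was read from a probe set with the added letter i, and signal from related genes was not tested. SSA3 and SSA4 changed places between arrays (0.30 ± 0.96). Of the old yellow enzymes, OYE2 had 254, 569.5 and 789 and OYE3 had 281, 501 and 783, a ratio of 0.02 ± 0.17. Both moved together over the arrays, lowest in replicate 1 and highest in replicate 3. TSA1 exceeded TSA2 by 4.53 ± 1.06 and GPX1 exceeded GPX2 by 4.82 ± 0.28.

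Among signalling genes RAS1 stood at -3.89 ± 0.79 to RAS2, with 193, 228 and 344 for RAS1 and 3619, 4967 and 2726 for RAS2. Of the stress activators MSN2 exceeded MSN4 by 2.51 ± 0.20, and of the Snf1 kinase beta subunits SIP1 stood at -3.39 ± 0.47 to SIP2. RSF2 exceeded TDA9, its closest relative, in all 3 arrays by 0.44 ± 0.25, but the signals overlapped, with 136, 229 and 279 for TDA9. Acetyl-CoA carboxylase ACC1 exceeded its mitochondrial relative HFA1 by 5.53 ± 0.46. LEU4 exceeded LEU9 by 4.82 ± 0.47, and among membrane proteins PIL1 stood at -1.74 ± 0.26 to its eisosome partner LSP1. Of the NADP-dependent glutamate dehydrogenases, GDH1 had 1294, 1359 and 2042 and GDH3 had 1899, 354 and 2347, with another order in replicate 2 than in the others.

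Pairs of ribosomal protein genes lay much closer. Of 59 listed pairs 31 were measured, 26 had the same order in all arrays, 10 did not overlap and 1 was over 4-fold apart in each array, with a median fold of 1.73. That pair was RPL22A, with 21177, 8599 and 6990, and RPL22B, with 679, 699 and 1219, a log2 ratio of 3.70 ± 1.22. The A gene was also the brighter for RPS26 (2.47 ± 0.74), RPL36 (1.96 ± 0.16) and RPS1 (1.85 ± 0.93). The B gene was the brighter for RPL9 (-1.95 ± 0.64), RPL24 (-1.27 ± 0.49) and RPL6 (-1.15 ± 0.82). In RPL37 the members were level, with 20931, 7112 and 5779.7 for RPL37A and 18435, 7462 and 6075 for RPL37B. Paralogs of this family are alike in coding sequence, so probe sets may read both members, and the 28 pairs left out had no separate probe sets. When the mean of all probe sets of a gene was used, the order of RPL7A and RPL7B and that of RPS0A and RPS0B turned round.

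**Figure D4:**
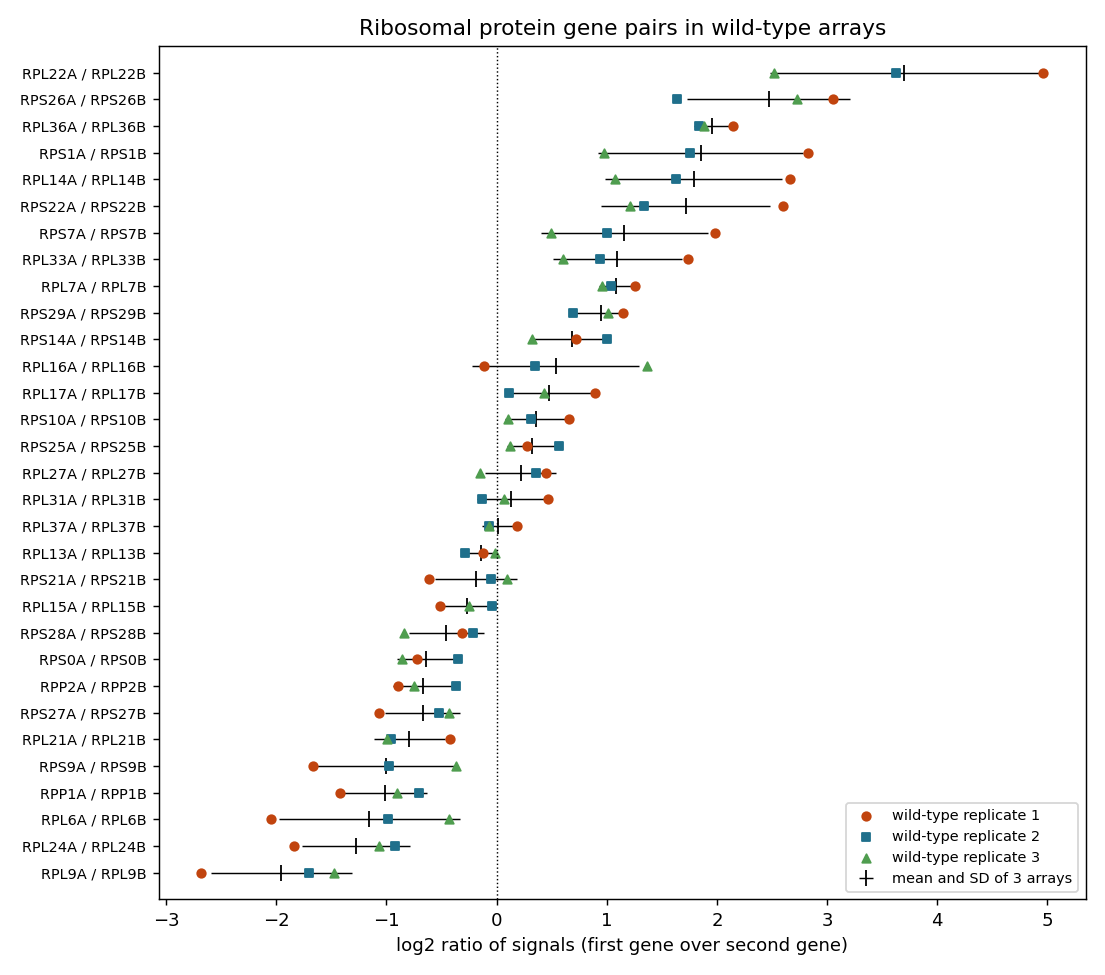
Log2 ratio of signals, A gene over B gene (or as named), for the 31 measured pairs of cytosolic ribosomal protein genes; symbols are the 3 wild-type arrays, and the bar and line their mean and SD. RPL22A over RPL22B lies at 3.70 and RPL9A over RPL9B at -1.95, and most pairs lie within 1 unit of 0.

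The spread over the arrays depended mainly on replicate 1. Of the 4242 genes over the filter 1876 (44.2%) spanned at least a 2-fold range as deposited, and replicate 1 was the highest or lowest array in 1746 of them. Over all 4242 genes, whatever their range, replicate 1 was the highest array in 863 and the lowest in 2746. Without replicate 1 the count was 278 (6.55%), without replicate 2 it was 1468 and without replicate 3 it was 1170. Quantile normalisation of the 3 arrays gave 1053 (24.8%). The median SD per gene was 0.48 on the log2 scale as deposited and 0.34 after that normalisation. In percentiles within the array, the median SD was 5.32 over the 4242 genes that passed the filter. It was 1.10 in the highest 10% of all genes and 1.99 in the lowest 10%, and percentiles are bounded at both ends.

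Signals of the brightest genes spread widely over the arrays as deposited. SSA1 had an SD of 1.46 on the log2 scale as deposited and 0.05 after quantile normalisation, ADH2 1.36 and 0.02, and ENO1 1.02 and 0.56. Quantile values follow the rank within the array, which was 1 or 2 for SSA1 and 5 or 6 for ADH2, but ran from 8 to 41 for ENO1, from 18 to 60 for CPR1 and from 19 to 47 for HYP2. Among lists, the median percentile moved least in the cell wall list (95.6 ± 0.057) and the TCA cycle (96 ± 0.11). It moved most in glycerol synthesis (67.4 ± 15) and in sulfate and methionine genes (47.9 ± 10). A steady median does not mean steady genes. Of 21 cell wall genes over the filter 13 spanned at least a 2-fold range as deposited and 6 after quantile normalisation. For the TCA cycle these counts were 5 and 1 of 16, and the shares over all filtered genes were 44.2% and 24.8%.

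The 12 genes of largest spread were chosen by their SD, so their range is a description. ORA1 came first with 10023, 139 and 4536, a range of 72.1-fold. It was followed by SHH3 with 946, 14.3 and 1141, PDC6, a minor pyruvate decarboxylase, with 759, 23.9 and 224, and YDR034C-A with 1000, 45.6 and 503. In these 4 genes replicate 2 was the low array, as it was for PIR3, a cell wall protein, with 1657, 177 and 2482, and for YKL107W. In the other 6, CDC45, TFC3, YDR514C, SNT309, SGF29 and TLG2, replicate 1 was low. CDC45, a replication initiation factor, had 13.7, 373 and 299 and TLG2, a SNARE of the endosome and Golgi, 46.8, 474 and 435. Of these 12, 7 were also among the 12 of largest spread after quantile normalisation.

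The 12 genes of smallest spread were DAP1, DBP5, RAV2, RCR2, VPS68, TOM20, MSB1, MES1, PMT3, SRV2, ATG19 and BNA1. DAP1, a haem-binding protein that regulates cytochrome P450, had 1619.9, 1622 and 1627. DBP5, an RNA helicase of mRNA export, had 2100.4, 2119 and 2089, and TOM20, a receptor of the mitochondrial outer membrane, 1372, 1376 and 1349.7. None of the 12 was among the 12 of smallest spread after quantile normalisation, so this end of the list belongs to the scale on which it was read.

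**Figure D5:**
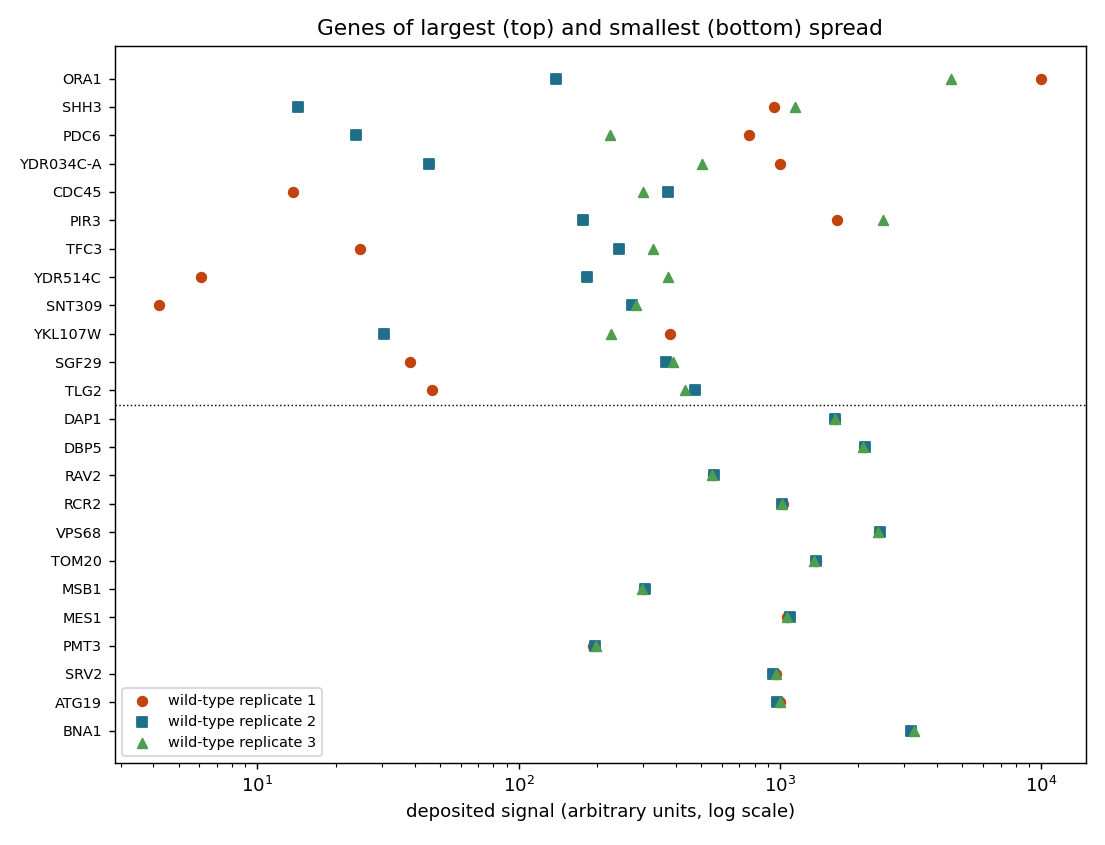
Deposited signal (arbitrary units, log axis) in each of the 3 wild-type arrays for the 12 genes of largest SD (above the dotted line) and the 12 of smallest SD (below it) among 4242 genes. ORA1 spans 139 to 10023, while DAP1 spans 1620 to 1627.

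The same genes were read in Δrsf2 in the only comparison that the design allows, with 2 mutant arrays against 3. The arrays were scaled to 1 trimmed mean and quantile normalised, and limma was fitted over the 4242 genes that passed the filter over 5 arrays. With limma, 0 of the 4242 genes (0%) had a Benjamini-Hochberg adjusted p under 0.05, and 225 had an unadjusted p under 0.05. Of the 25 brightest wild-type genes 0 passed. Their log2 differences ran from -2.76 ± 1.03 (SE) for FIT3 to 0.58 ± 0.38 for CPR1, with a median of -0.08, and limma adjusted p-values from 0.914. FIT3 had normalised signals of 18158 and 1035 in Δrsf2, against 27506, 36863 and 25200.1 in the wild type, so the mutant arrays were themselves far apart. ADH2 had a difference of -0.08 ± 0.26 and SSA1 of -0.12 ± 0.23. Replicate 1 of each strain had a high CreX spike-in signal after scaling, 48446 in Δrsf2 and 52713 in the wild type, against 2216 in Δrsf2 replicate 2 and 9326 and 2631 in the other wild-type arrays. With this division as a term limma also called 0 genes, with 305 at an unadjusted p under 0.05. Of the 100 brightest wild-type genes 77 were also among the first 100 of Δrsf2 replicate 1 and 64 among those of Δrsf2 replicate 2. Among the first 100 of both mutant arrays were 53 of them, but the 2 mutant arrays shared only 58 of their first 100 with each other. Without Δrsf2 replicate 1 the fit called 25 genes and without Δrsf2 replicate 2 it called 170, which rest on 1 mutant array each. RSF2 lay below the filter over 5 arrays and was not in the fit.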

How the data were processed

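The deposited values are linear signal intensities, 1 for each of 9335 probe sets, from MAS5 as run by the authors (tool name per the submitters' processing notes). The MAS5 version, settings and detection calls are not given in the sources used here. A timed shift from dextrose to glycerol is in the labels' treatment text but not in the series design, and no time was used. Of the 9335 probe sets 60 were controls, 328 had several genes, 2443 had no listed gene and 6504 had 1 gene, all of which matched the RefSeq gene table of assembly R64, used for names only. No sequence table was used here, so no sequences are printed.

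Wild-type levels were described on the deposited signals, whose trimmed means (2% cut from each end) agreed within 10%. Δrsf2 replicate 1 had a trimmed mean of 100.1, so for the comparison with Δrsf2 all arrays were scaled to 500 and quantile normalised. Values were floored at the 10th percentile, and genes under the 25th percentile of mean log2 signal (a signal of 123) were left out of counts of spread. The comparison used limma 3.58.1 in R 4.3.3 (lmFit, eBayes with trend, group as the only term, Benjamini-Hochberg adjustment, threshold 0.05) and was tested on simulated data. Percentiles, ranks and pair ratios were computed in Python 3.11.15 with pandas 2.3.3. Named genes were the 25 of highest mean log2 signal, the 12 of largest and the 12 of smallest SD, RSF2, and members of the 36 gene lists and 181 pairs. The members, lists and pairs were chosen with earlier results of these data known. With 3 arrays, and 2 for the mutant, precision is limited.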

Additional observations from a re-analysis of the deposited data

How the results depend on the processing

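The count of genes with at least a 2-fold range over the wild-type arrays, 1876 of 4242 as deposited, was the value that moved most. It was 1053 after quantile normalisation of the 3 arrays, 971 after quantile normalisation of all 5 arrays, 1150 of 2828 with a filter at the 50th percentile, and 278 to 1468 when each array in turn was left out, lowest without replicate 1. The first 100 genes by signal shared 82 to 100 genes with those of the other settings, fewest when probe sets with an added letter in their name were left out. Pairs in the same order in every array numbered 120 of 141, and 101 of 119 to 127 of 141 under the other settings; only the mean of all probe sets turned the order of any, in 2 ribosomal protein pairs. The number of lists over the 50th percentile was 27, or 28 without wild-type replicate 3, where the sulfate and methionine list passed it. In the limma comparison of Δrsf2 with the wild type 0 genes were called, and 0 to 170 when each array in turn was left out; the lone mutant array is then assumed to vary like the wild type. With the replicate number as a block limma also called 0 genes, with 98 at an unadjusted p under 0.05. Same-numbered arrays deviated from their group means with a correlation across genes of 0.21 for replicate 1 and -0.17 for replicate 2. These 2 values are not independent, since the deviations of 2 mutant arrays mirror each other, and the labels do not say that a number marks a shared batch. The array count limits what any of these values can show, and dim signals near the floor have no order.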

Other observations

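Of the first 100 genes by wild-type signal 33 were in none of the lists, and the genes named from them here were chosen after their values were seen. JEN1, the permease for lactate and pyruvate, had 9261, 7056 and 5039.7 at rank 99, although neither compound was named as a carbon source. PHO84, the high-affinity phosphate transporter, had 9595, 7595 and 5348 at rank 93, and GCN4, the activator of amino acid synthesis whose protein level is set by translation, 11626, 6973 and 5066 at rank 88. RGI2, a gene required for energy metabolism under respiratory growth, had 18025, 9563 and 6256 at rank 40. ARF1, a small GTPase of the Golgi, ranked 28 and ACT1, actin, 41. Both exceeded the median gene of their array in every replicate, which their choice from the first 100 had all but fixed.

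Genes that have only a systematic name in the gene table were rare among bright signals. They were 15 of the 565 genes in the highest 10% (2.65%) and 146 of the 566 in the lowest (25.8%). Besides YDR524C-B, YNL208W was the brightest of them, with 20341, 7752 and 7800.2 at rank 35. Among genes that do not code for protein, 57 small nucleolar RNA genes had a median rank of 5226 and 91 tRNA genes one of 4875. The 5486 protein-coding genes had a median rank of 2764. The smaller classes were split. Low ranks were found for 4 small nuclear RNA genes (median 5234.5), the RNase P RNA (5454) and the telomerase RNA (3866). High ranks were found for 1 gene of the class misc_RNA (227) and for 4 ribosomal RNA genes (median 441.5, the best at 189). The ribosomal RNA ranks depend on the probe set used. For RDN37-1 the highest of 7 probe sets had 4347, 5129.5 and 3666.5 and the lowest 8.8, 35.8 and 104.8. For RDN25-1 the 2 probe sets had 4598, 3983 and 4398 and 570, 411 and 782. Poly(A) selection preceded the labelling of all arrays, and its part in these ranks was not tested.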
